A study of Mus musculus with 94 samples.

Results

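The 9 Hedgehog pathway genes Shh, Ihh, Ptch1, Boc, Hhip, Smo, Gli1, Gli2 and Gli3 were followed through the 4 deposited tables of counts per gene. The genes were taken by symbol, 9 of the 24767 symbols that the tables hold between them. All 9 have a row in the tables of WAPL loss on days 4 to 7 and of RAD21 loss at day 10. Ihh and Hhip have no row in the table of WAPL loss on days 7 to 10, and Boc has none in the PRO-seq table, so 7 and 8 genes were followed there.

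The cells were mouse embryonic stem cells of the CAST/Ei x 129/Sv/Jae cross carrying Tsix-stop, differentiated as embryoid bodies, and every library came from a line with an FKBP degron on RAD21 or on WAPL. RAD21 belongs to cohesin, which extrudes loops of chromatin, and WAPL takes cohesin off DNA. Tagged protein was degraded by adding dTAG-13 at 500 nM, with DMSO as the solvent control. WAPL-degron cells were treated with DMSO or dTAG-13 from day 4 to day 7 (clone H7 replicates 1 and 2 and 1 pair of clone H2, with 3 libraries per group) or from day 7 to day 10 (clone H7 alone, with 2 per group). RAD21-degron cells were treated for 8 h, and poly(A) RNA was taken at day 10 and nascent RNA at day 7 by PRO-seq, which maps engaged RNA polymerase. Both RAD21 sets had 1 pair of libraries from clone C4 and 1 from clone G9. The controls carried the same tags as the treated cells. The stem cells had been kept on irradiated mouse fibroblasts before differentiation, and whole cultures were sampled. No label says that replicates came from separate derivations, so p-values refer to these libraries only. The test used also borrows the estimate of spread from other genes, most of all where few libraries are left to estimate it.

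In Hedgehog signalling a secreted ligand, such as Shh or Ihh, binds the receptor Ptch1, aided by co-receptors such as Boc. Unbound Ptch1 holds back Smo, a membrane protein that acts at the primary cilium. Released Smo lets the Gli factors enter the nucleus as activators, whereas without ligand Gli3, and to a lesser degree Gli2, is processed to a repressor. Gli1, Ptch1 and Hhip, a surface protein that binds and sequesters the ligands, are themselves transcriptional targets in many tissues and are widely read as gauges of the signal. In the early embryo Shh is made by the node, notochord, floor plate and gut endoderm, and Ihh by visceral endoderm.

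RefSeq promoter sequences were at hand for 6 of the 9 genes, Ihh, Ptch1, Hhip, Smo, Gli2 and Gli3, and the 250 bases before the start of 3 of them are shown, because Hhip and Smo fell together after WAPL loss and Ptch1 is the classical target gene. Each reads 5′ to 3′ on the gene's strand, in build GRCm38.p6. Hhip lies at chr8:80058009-80058258 on the minus strand, Smo at chr6:29735247-29735496 on the plus strand and Ptch1 at chr13:63565736-63565985 on the minus strand. Capitals mark the GC box GGGCGG or its reverse complement CCGCCC, a motif bound by Sp factors.
Hhip: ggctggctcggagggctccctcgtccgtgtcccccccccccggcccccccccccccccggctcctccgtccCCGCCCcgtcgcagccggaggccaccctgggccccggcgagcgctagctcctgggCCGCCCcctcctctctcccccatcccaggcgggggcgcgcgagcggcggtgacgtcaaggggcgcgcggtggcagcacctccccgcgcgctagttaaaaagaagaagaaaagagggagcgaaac
Smo: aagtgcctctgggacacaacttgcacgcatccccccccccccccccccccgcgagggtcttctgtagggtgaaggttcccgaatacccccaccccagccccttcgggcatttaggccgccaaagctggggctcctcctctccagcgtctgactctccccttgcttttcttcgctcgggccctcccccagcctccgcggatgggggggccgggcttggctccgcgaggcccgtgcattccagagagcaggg
Ptch1: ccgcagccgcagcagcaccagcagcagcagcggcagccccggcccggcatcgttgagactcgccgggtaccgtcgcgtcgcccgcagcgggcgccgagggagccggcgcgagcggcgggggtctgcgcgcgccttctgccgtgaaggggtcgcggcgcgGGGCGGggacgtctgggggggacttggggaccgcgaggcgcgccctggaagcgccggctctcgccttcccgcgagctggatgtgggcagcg
The GC box occurred in 5 of the 6 windows, Smo being the exception, and in 32.7% of the 32851 windows of all genes. The Gli consensus GACCACCCA, or TGGGTGGTC on the other strand, was in none of the 6 and in 0.225% of all windows. TATAAA, or TTTATA, was also in none of the 6 and in 12.4% of all windows. These windows were rich in CpG dinucleotides, with 41 in Ptch1, 28 in Hhip and 15 in Smo against a median of 6 over all windows. Both strands were searched; a match describes letters, not binding, and no match says only that these letters are not in this window.

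Total counts per library ranged from 8413212 to 35388461, so that 3 counts, taken as the floor of detection, correspond to 0.0835 to 0.374 CPM (the usual unit of counts over library size, the latter adjusted by edgeR's TMM factors). This floor covers counting error only. CPM are not divided by gene length, so levels are compared between libraries and never between genes. Markers of pluripotent and primed epiblast cells summed to 1620 to 3610 CPM in the DMSO RNA libraries, and markers of the germ layers were also present. Apoa4, a yolk sac marker, had no counts in the WAPL day 4 to 7 and PRO-seq libraries. The degron acts on protein, so messenger RNA of the tagged gene does not check its loss: Wapl differed by 0.02 log2 (SE 0.11) and -0.01 (SE 0.21) in the early and late WAPL comparisons, and Rad21 by 0.14 (SE 0.06) in RNA and 0.16 (SE 0.07) in PRO-seq after RAD21 loss.

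**Figure D1:**
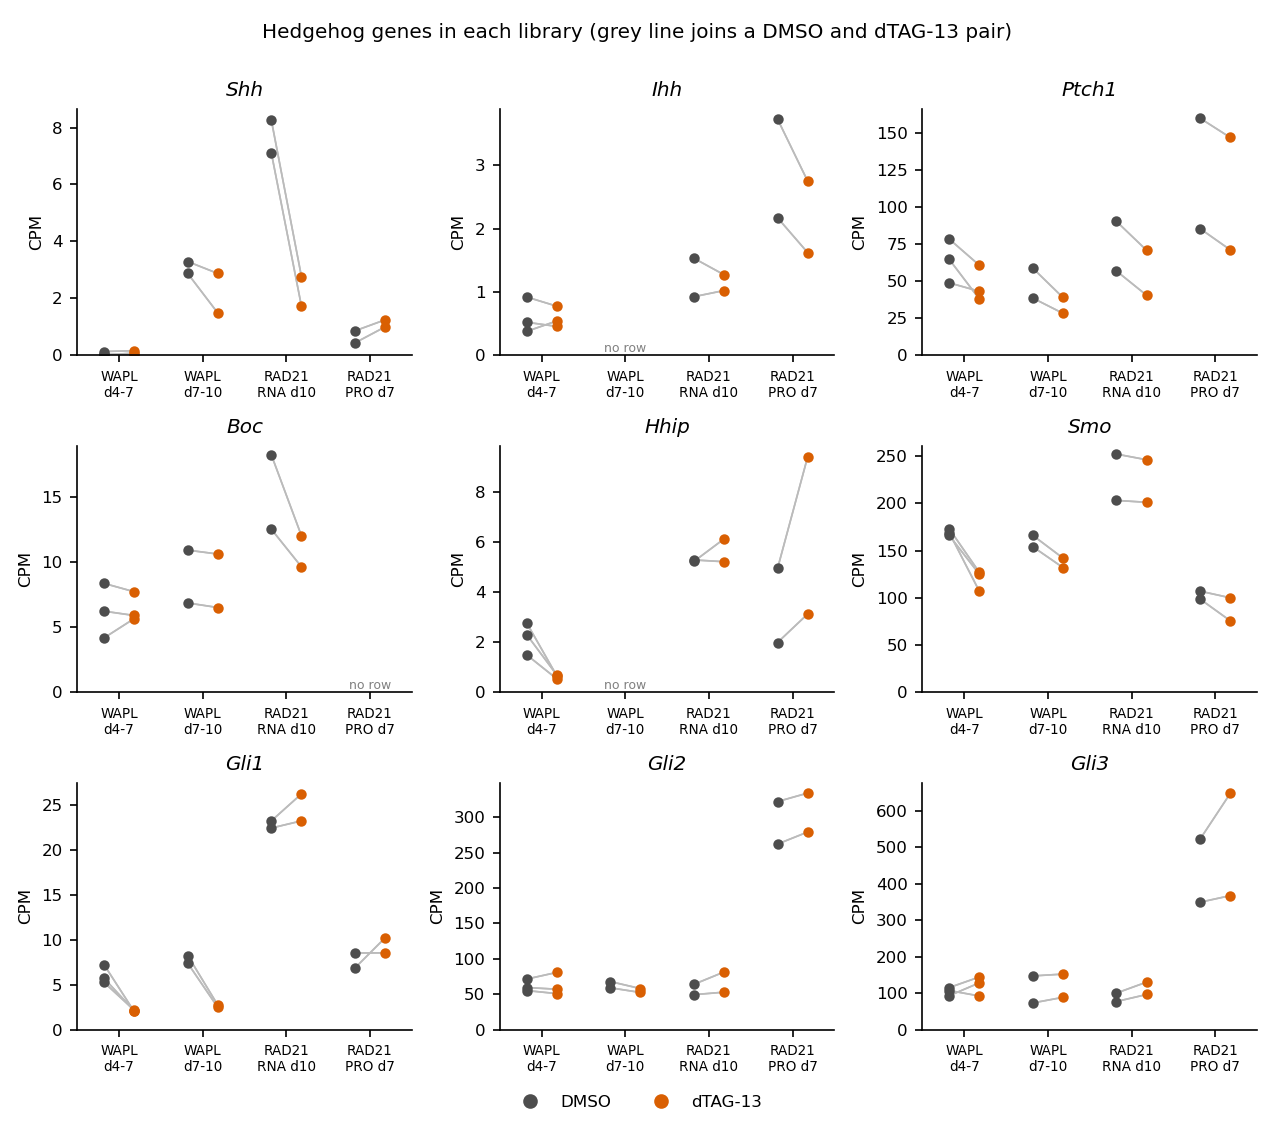
CPM of each gene (vertical axes, starting at 0) in every library of the 4 sets; each point is 1 library, grey for DMSO and orange for dTAG-13, and a line joins the libraries of a pair. Gli1 stood at 2.01 to 2.16 in the dTAG-13 libraries of WAPL days 4 to 7 against 5.24 to 7.21 in DMSO, and Shh at 1.72 and 2.76 against 7.11 and 8.26 in the RAD21 day 10 RNA.

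WAPL loss from day 4 to day 7 lowered Gli1, Hhip and Smo and raised none of the 9 genes. Of the 7 genes with enough counts to be tested, 3 passed the threshold (edgeR's quasi-likelihood test, Benjamini-Hochberg adjusted p under 0.05), all of them lower. Over all 14544 genes tested, 15.2% passed in either direction and 5.73% passed as lower. The median log2 fold change of the 7 was -0.45, against -0.01 over all genes tested.

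Gli1, the activator that is itself a target of the pathway, stood at 7.21, 5.70 and 5.24 CPM in the DMSO libraries of H7 replicate 1, H7 replicate 2 and H2. In the matching dTAG-13 libraries it stood at 2.01, 2.09 and 2.16 CPM. All dTAG-13 libraries were low, at nearly the same level, and the groups did not overlap. The fitted change was -1.55 log2 (SE 0.21), 2.93-fold lower, with an adjusted p of 0.00385.

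Hhip, the ligand-binding antagonist, was scarce but fell further. Its counts were 83, 59 and 12 in DMSO and 9, 19 and 7 after dTAG-13. Its level was 2.31, 2.78 and 1.5 CPM in DMSO and 0.696, 0.663 and 0.539 CPM after dTAG-13. Each dTAG-13 library lay below every DMSO library, and the fitted change was -1.80 log2 (SE 0.28), 3.49-fold lower, with an adjusted p of 0.00628.

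Smo, the signal transducer, was abundant and tightly measured, at 173, 166 and 169 CPM in DMSO and 127, 125 and 107 CPM after dTAG-13. The groups did not overlap, although the change was smaller than for Gli1 or Hhip, at -0.51 log2 (SE 0.09), 1.42-fold lower, with an adjusted p of 0.0111. The call on Smo was lost without the DMSO library of H7 replicate 1 (adjusted p = 0.0522). It was also lost without either H2 library (0.128 and 0.129) and in clone H7 alone. A lone H2 library is matched by its own clone term, so the fits without an H2 library nearly repeat that of clone H7 alone. The calls on Gli1 and Hhip held in all 6 fits that left out 1 library, those without an H2 library among them.

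Ptch1, the receptor, was at 64.7, 48.8 and 78.4 CPM in DMSO and 37.9, 43.1 and 60.7 CPM after dTAG-13. It was lower in each pair, but the groups overlapped, and the change of -0.45 log2 (SE 0.13) missed the threshold with an adjusted p of 0.0539. With each pair as a block, a fit that called 27.5% of all genes, the adjusted p of Ptch1 was 0.0175 and 4 of the 7 genes passed.

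The remaining members did not pass. Gli2 was at 55.1, 59.4 and 71.3 CPM in DMSO and 50.8, 57.0 and 80.7 CPM after dTAG-13, a change of 0.00 log2 (SE 0.11). Gli3, the main repressor-forming Gli, was at 107, 115 and 92.7 CPM and 92.1, 144 and 128 CPM, a change of 0.21 log2 (SE 0.17). The co-receptor Boc was at 4.17, 6.22 and 8.35 CPM and 5.65, 5.89 and 7.71 CPM, a change of 0.08 log2 (SE 0.20). In these 3 genes the groups overlapped. Ihh had 3 to 33 counts per library, and Shh 0 to 2, at or below the floor, so neither was tested.

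Marker levels moved in the same libraries. Fibroblast and feeder markers summed to 127 to 248 CPM in DMSO and 501 to 654 CPM after dTAG-13, with 6 of 10 tested markers higher and 1 lower. Neural progenitor markers summed to 342 to 384 CPM and 203 to 248 CPM, with 2 of 6 lower, and pluripotency markers to 2660 to 3610 CPM and 1750 to 2230 CPM, with 3 of 9 lower. Node, notochord and floor plate markers summed to 212 to 302 CPM and 224 to 421 CPM, with 3 of 8 higher and 3 lower, and visceral and parietal endoderm markers to 448 to 579 CPM and 696 to 799 CPM, with 4 of 12 higher and 1 lower. The part of these markers in the change of Gli1, Hhip and Smo was not tested, and in whole cultures fewer cells of a type and less RNA per cell cannot be told apart.

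**Figure D2:**
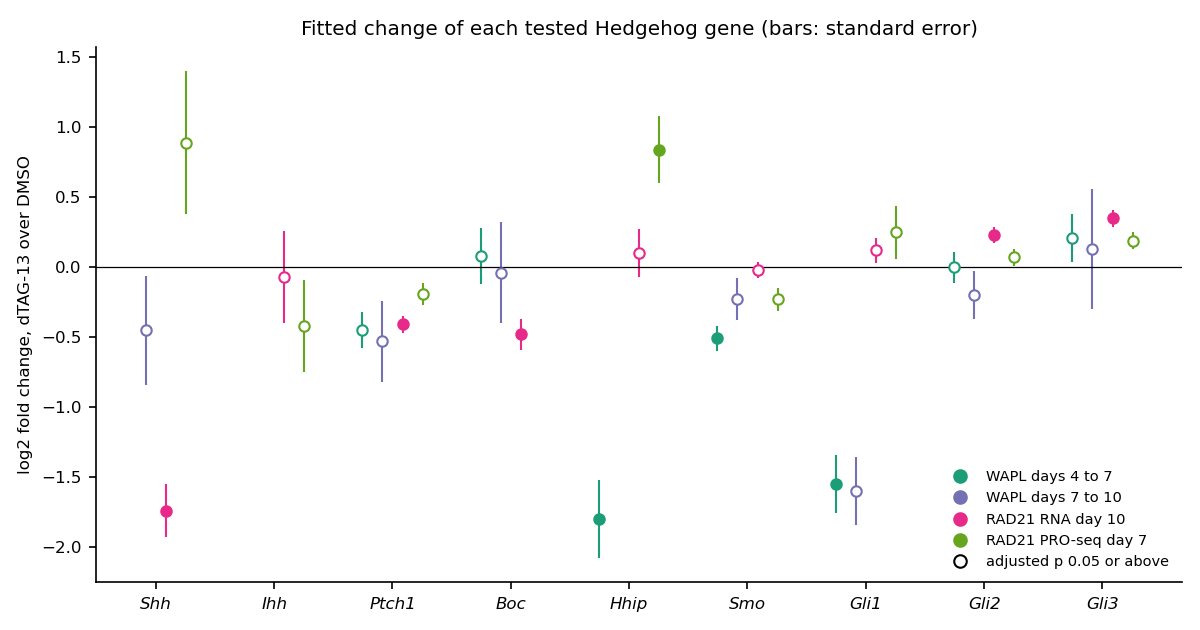
Fitted log2 fold change of dTAG-13 over DMSO (vertical axis) for each tested gene; points are edgeR estimates, bars are standard errors, colours are the 4 comparisons, and filled points passed an adjusted p of 0.05. Gli1 lay at -1.55 and -1.60 in the early and late WAPL comparisons, and Shh at -1.74 in the RAD21 day 10 RNA.

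After WAPL loss from day 7 to day 10 in clone H7, Gli1 had the largest shift of the 7 genes in that table, but none of them passed the test, and neither did any of the 14110 genes tested (0%). With edgeR 926 of all genes had an unadjusted p under 0.05, and of the 7 members only Gli1 did. This fit did not pair the libraries by replicate number. With each pair as a block, which left 1 residual degree of freedom, 5141 genes and 4 of the 7 members passed. DESeq2 called 44 genes and limma-voom called 0.

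Gli1 stood at 8.23 and 7.38 CPM in the DMSO libraries of replicates 1 and 2 and at 2.72 and 2.46 CPM after dTAG-13. The groups did not overlap, and the log2 ratio was -1.58 in both pairs. The fitted change was -1.60 log2 (SE 0.24), 3.02-fold lower, with an unadjusted p of 0.00118 and an adjusted p of 0.663. By p-value Gli1 ranked 11 among the 14110 genes tested. DESeq2 gave an adjusted p of 0.0398, and over all alternatives tried the change lay between -1.67 and -1.5 log2 with adjusted p-values from 4.25e-08 to 0.789.

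Ptch1 was at 38.5 and 58.7 CPM in DMSO and 28.2 and 38.9 CPM after dTAG-13, a change of -0.53 log2 (SE 0.29). Smo was at 166 and 154 CPM and 142 and 132 CPM, a change of -0.23 log2 (SE 0.15). Gli2 was at 59.0 and 67.8 CPM and 52.4 and 57.9 CPM, a change of -0.20 log2 (SE 0.17). All 3 were lower in both pairs, with adjusted p-values of 0.838, 0.883 and 0.921.

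Shh was now detectable, with 54 and 65 counts in DMSO and 18 and 78 counts after dTAG-13. Its level was 2.87 and 3.29 CPM in DMSO and 1.48 and 2.87 CPM after dTAG-13, a change of -0.45 log2 (SE 0.39) that rested mainly on replicate 1. Gli3, at 73.0 and 147 CPM in DMSO and 88.3 and 152 CPM after dTAG-13, differed more between replicates than between treatments. Boc behaved likewise, at 6.85 and 10.9 CPM and 6.5 and 10.6 CPM. Fibroblast and feeder markers summed to 413 to 589 CPM in DMSO and 720 to 788 CPM after dTAG-13, and visceral and parietal endoderm markers to 717 to 884 CPM and 969 to 984 CPM. Pluripotency markers summed to 2020 to 2670 CPM and 1320 to 1850 CPM, and neural progenitor markers to 307 to 308 CPM and 227 to 234 CPM. Node, notochord and floor plate markers summed to 329 to 353 CPM and 362 to 462 CPM, and haemato-endothelial markers to 95.7 to 98.8 CPM and 87.1 to 89.7 CPM. These sums did not overlap between groups, while those of gut endoderm and mesoderm markers did. With 2 libraries per group such separation can arise without any effect, and sums weigh abundant genes most. The median log2 fold change of the node, notochord and floor plate markers was -0.18, opposite to their sum. It was 0.42 for fibroblast and feeder, 0.13 for visceral and parietal endoderm, -0.55 for pluripotency, -0.14 for neural progenitor and -0.37 for haemato-endothelial markers. No single marker passed, and the part of these markers in the Gli1 values was not tested.

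The effects of the early and late windows were compared directly in 1 model of the 10 WAPL libraries. None of the 7 genes differed between windows, nor did any of the 14326 genes tested (0% called by edgeR, 423 at an unadjusted p under 0.05, 4 called by DESeq2 and 0 by limma-voom). The late effect minus the early one was -0.04 log2 (SE 0.28) for Gli1. It was 0.30 (SE 0.14) for Smo, with an unadjusted p of 0.0681 and an adjusted p of 1. For Shh it was -1.23 (SE 1.17), with 0 to 2 counts per library in the early window.

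In DMSO cultures of clone H7 Shh separated day 10 from day 7. It had 1 and 0 counts in the 2 libraries of day 7 and 54 and 65 in the 2 of day 10. The ratio of the summed counts, over library sizes adjusted by TMM factors, was 171. Its exact 95% interval of 30.1 to 6810 covers counting error only. Shh was the only 1 of 7 members to pass, with an adjusted p of 0.00959, where 1.39% of 14143 genes passed. Over all genes 179 passed as higher and 18 as lower. Shh met the count minimum through its day 10 libraries alone, so a call on it could only be higher. Only genes with a row at both days were fitted, and fewer genes are listed at day 10. Gli1 had 0.23 log2 (SE 0.23) and Ptch1 -0.26 log2 (SE 0.25) at day 10 over day 7, neither past the threshold. The 2 days come from separate deposited tables, so day and table cannot be told apart. Of the node, notochord and floor plate markers 4 of 8 were higher at day 10 and none lower, and of the gut endoderm markers 4 of 7. Markers without a day 10 row could not be counted as lower. A row at both days existed for 8 of 9 node, notochord and floor plate markers and 10 of 16 visceral and parietal endoderm markers. Other lists rose too, with 3 of 8 mesoderm, 3 of 10 fibroblast and feeder and 2 of 10 visceral and parietal endoderm markers higher. The median log2 fold change was 1.78 for node, notochord and floor plate, 1.86 for gut endoderm and 1.89 for mesoderm markers. Foxa2, a factor of floor plate and endoderm that is on both lists, rose by 1.86 log2 (SE 0.25) with an adjusted p of 0.0286.

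RAD21 loss for 8 h at day 10 lowered the ligand gene Shh, together with Ptch1 and Boc, and raised Gli2 and Gli3 slightly. Of the 9 genes 5 passed, 3 lower and 2 higher, where 18.7% of the 14470 genes tested passed. The median log2 fold change of the 9 was -0.02, against 0.01 over all genes.

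Shh stood at 8.26 and 7.11 CPM in the DMSO libraries of clones C4 and G9 (197 and 246 counts) and at 2.76 and 1.72 CPM after dTAG-13 (73 and 23 counts). Both dTAG-13 libraries lay far below both DMSO libraries. The fitted change was -1.74 log2 (SE 0.19), 3.34-fold lower, with an adjusted p of 4.44e-17. This fit, with the clone as a term, left 1 residual degree of freedom, so its p-values lean on the spread of other genes. With RLE scaling in place of TMM factors the change and SE were the same, and edgeR's adjusted p was 3.45e-07. Without the clone term 1 gene in all passed and no member did, Shh having an unadjusted p of 0.00166 and an adjusted p of 0.402.

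Ptch1 was at 90.3 and 56.8 CPM in DMSO and 70.8 and 40.4 CPM after dTAG-13. It was lower within both clones, while the clones differed more than the treatments, and the change of -0.41 log2 (SE 0.06) had an adjusted p of 4.49e-10. Boc was at 12.5 and 18.2 CPM and 9.62 and 12.0 CPM, a change of -0.48 log2 (SE 0.11) with an adjusted p of 0.000366. Gli3 was at 100 and 76.9 CPM in DMSO and 130 and 96.1 CPM after dTAG-13, a rise of 0.35 log2 (SE 0.06) with an adjusted p of 2.75e-08. Gli2 was at 63.9 and 49.3 CPM and 81.3 and 52.8 CPM, a rise of 0.23 log2 (SE 0.06) with an adjusted p of 0.00128. These 4 calls rested on the clone term: leaving out any 1 library, and with it that term, ended each of them, whereas Shh stayed past the threshold in 3 of the 4 such fits, the exception being that without the dTAG-13 library of G9 (adjusted p = 0.228). With all libraries and the clone term, DESeq2 did not call Boc (adjusted p = 0.324) or Gli2 (0.64), and scaling by library totals did not call Gli2 (0.0899).

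The target genes Gli1 and Hhip, with Smo and Ihh, did not pass in the same libraries. Gli1 was at 23.2 and 22.4 CPM in DMSO and 26.2 and 23.2 CPM after dTAG-13, a change of 0.12 log2 (SE 0.09) with an adjusted p of 0.381. Hhip was at 5.29 and 5.23 CPM and 5.22 and 6.13 CPM, a change of 0.10 log2 (SE 0.17). Smo was at 252 and 203 CPM and 246 and 201 CPM, a change of -0.02 log2 (SE 0.06). Ihh was at 0.923 and 1.53 CPM and 1.02 and 1.27 CPM, a change of -0.07 log2 (SE 0.33).

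Node, notochord and floor plate markers summed to 483 to 577 CPM in the DMSO libraries and 399 to 446 CPM after dTAG-13, with 6 of 9 tested markers lower and none higher. Gut endoderm markers had 5 of 7 lower and 1 higher, with sums of 697 to 892 CPM and 651 to 959 CPM. Pluripotency markers summed to 1620 to 1910 CPM and 1200 to 1480 CPM, with 9 of 9 lower. Fibroblast and feeder markers went the other way in their sums, at 606 to 630 CPM and 755 to 770 CPM, with 1 of 10 higher and 3 lower. The part of these markers in the change of Shh was not tested.

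In nascent RNA at day 7, Hhip was the 1 member of 8 to pass after RAD21 loss, near the share of 10.6% of the 16496 genes tested. Hhip stood at 4.95 and 1.99 CPM in the DMSO libraries of C4 and G9 (173 and 28 counts) and at 9.41 and 3.13 CPM after dTAG-13 (218.5 and 45.5 counts). It was higher within both clones, but the clones differed more than the treatments and the groups overlapped. The change was 0.84 log2 (SE 0.24), 1.79-fold higher, with an adjusted p of 0.0207. Leaving out any 1 library, and with it the clone term, ended this call, as did DESeq2 (adjusted p = 0.395).

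Shh was scarce in nascent RNA, at 0.429 and 0.852 CPM in DMSO and 0.991 and 1.24 CPM after dTAG-13 in C4 and G9, from 12 to 23 counts per library. Its change of 0.89 log2 (SE 0.51) had an adjusted p of 0.300. Gli3 was at 349 and 522 CPM in DMSO and 367 and 647 CPM after dTAG-13, a change of 0.19 log2 (SE 0.06) with an adjusted p of 0.0519. Smo was at 107 and 98.6 CPM and 100 and 75.7 CPM, a change of -0.23 log2 (SE 0.08) with an adjusted p of 0.0801. Ptch1, at 160 and 85.4 CPM and 147 and 71.1 CPM, had -0.19 log2 (SE 0.08) with an adjusted p of 0.118. All 3 were shifted the same way in both clones and missed the threshold.

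Gli1 was at 8.51 and 6.85 CPM in DMSO and 8.53 and 10.2 CPM after dTAG-13, a change of 0.25 log2 (SE 0.19). Gli2 was at 262 and 322 CPM and 279 and 334 CPM, a change of 0.07 log2 (SE 0.06). Ihh was at 2.17 and 3.73 CPM and 1.62 and 2.75 CPM, a change of -0.42 log2 (SE 0.33). Node, notochord and floor plate markers summed to 195 to 264 CPM in DMSO and 88.1 to 107.8 CPM after dTAG-13, with 4 of 8 lower. Pluripotency markers summed to 825 to 942 CPM and 464 to 611 CPM, with 8 of 9 lower. Other sums were higher after dTAG-13. Fibroblast and feeder markers summed to 70.8 to 77.0 CPM and 81.3 to 94.2 CPM, with 1 of 9 higher and 0 lower. Gut endoderm markers summed to 182.5 to 212.3 CPM and 215.2 to 228.4 CPM, with 0 of 7 higher and 1 lower. The part of these markers in the values above was not tested.

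**Figure D3:**
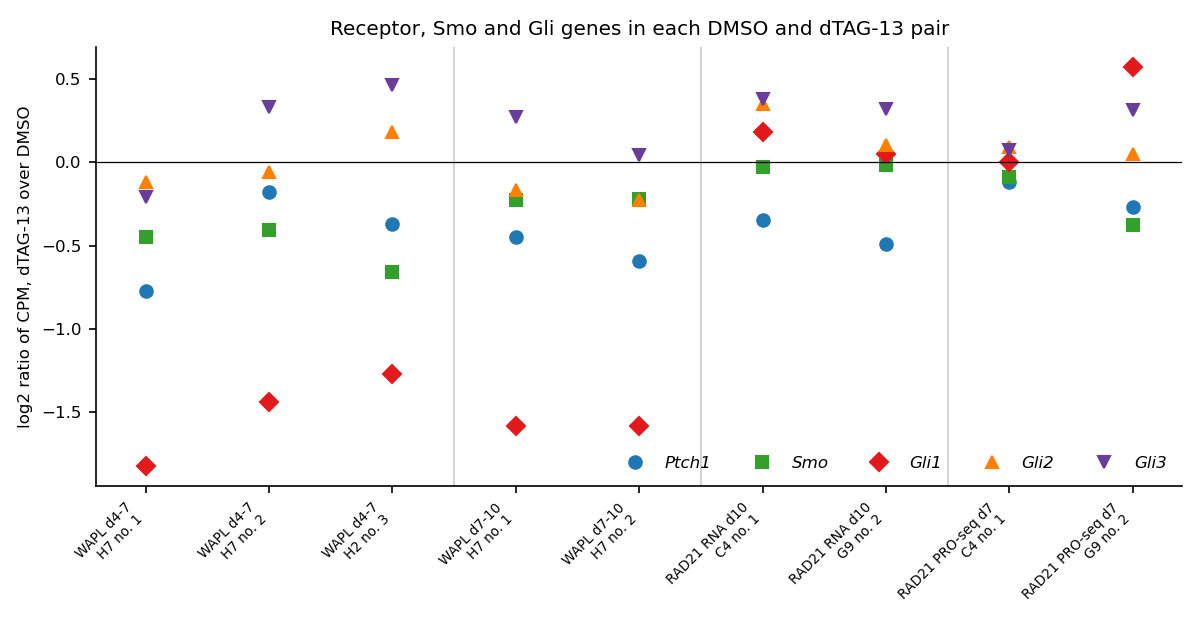
Log2 ratio of CPM, dTAG-13 over DMSO (vertical axis), in each of the 9 pairs of libraries for the 5 genes tested in all 4 treatment comparisons. Gli1 lay between -1.82 and -1.27 in the 5 WAPL pairs and between 0.00 and 0.57 in the 4 RAD21 pairs, while Ptch1 and Smo were below 0 throughout.

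Across the 9 pairs the ratios of the receptor and the transducer kept 1 sign. Ptch1 and Smo were lower after dTAG-13 in 9 of 9 pairs, as were 7.02% of the 12815 genes tested in all 4 comparisons. For Smo this includes ratios close to 0, at -0.03 and -0.02 in the RAD21 RNA pairs and -0.09 in the C4 PRO-seq pair. Gli3 was higher in 8 of 9 pairs, the exception being H7 replicate 1 of the early WAPL window. Gli1 had 2 separate ranges. Its ratio was -1.82, -1.44 and -1.27 in the early WAPL pairs and -1.58 in both late pairs, against 0.18 and 0.05 in the RAD21 RNA pairs and 0.00 and 0.57 in the PRO-seq pairs. The WAPL pairs (3 days of treatment, clones H7 and H2) and the RAD21 pairs (8 h, clones C4 and G9) differ in more than the protein lost, and PRO-seq is also another assay. These differences cannot be told apart here.

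The mean absolute difference of the log2 ratios over the 9 pairs served as a measure of likeness, with 12184 genes compared. Among the members Gli2 and Gli3 were closest, at 0.223, followed by Ptch1 and Smo at 0.265. Gli1 lay at least 0.781 from each of the others. Of all genes C1qtnf1, Rpl36a and Vil1 were most like Gli1, at 0.263, 0.278 and 0.317. Rgs9bp, Zfp799 and Dtl were most like Ptch1, at 0.0715 to 0.115, and Mettl5, Zfp422 and Ehmt2 most like Smo, at 0.0526 to 0.0608. Rapgef1, Robo1 and Aen came nearest to Gli2, at 0.0750 to 0.0799, and Farp1, Iqsec1 and Arhgap21 to Gli3, at 0.0746 to 0.0832. Genes that change little in any pair lie close to one another on this measure.

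Other genes of the pathway were described by 5 lists. Over all genes tested 15.2% passed after early WAPL loss, 18.7% in the RAD21 RNA and 10.6% in PRO-seq, and counts in short lists are to be read beside these shares. Among ligand production and release genes, Dhh, the third mammalian Hedgehog ligand, rose after early WAPL loss by 1.31 log2 (SE 0.34, adjusted p = 0.0352), the only 1 of 6 tested to pass. Dhh rose also in PRO-seq after RAD21 loss, by 0.51 log2 (SE 0.16, adjusted p = 0.0406), as did Scube3, a carrier of released ligand, by 0.57 log2 (SE 0.14, adjusted p = 0.00657), 2 of 6 tested. None of the 5 tested passed in the RAD21 RNA. The list's median was 0.53 in the early WAPL comparison and 0.26 in PRO-seq, against -0.01 and 0.00 over all genes.

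Among other receptors and co-receptors, 1 of 8 tested fell after early WAPL loss and none rose, with a list median of -0.13 against -0.01 over all genes. In the RAD21 RNA 4 of 8 fell and 1 rose, where 18.7% of all genes passed. The glypican Gpc4 fell by 0.52 log2 (SE 0.06) and the co-receptor Cdon by 0.37 log2 (SE 0.06), with adjusted p-values of 3.2e-17 and 4.22e-08. Gpc3, a glypican that binds ligand without signalling, rose by 0.29 log2 (SE 0.08, adjusted p = 0.00444). In PRO-seq Gpc4 fell by 0.47 log2 (SE 0.08, adjusted p = 5.19e-05), and the endocytic receptor Lrp2 rose by 0.51 log2 (SE 0.06, adjusted p = 9.32e-07), the 2 of 7 tested to pass.

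Of the 15 tested intracellular regulators of Smo and Gli, 3 fell after early WAPL loss and none rose, near the share of 15.2% of all genes that passed. They were Arrb2, which helps carry Smo to the cilium, at -0.71 log2 (SE 0.12), Sufu, the main restraint on Gli factors, at -0.54 log2 (SE 0.09), and Kif7, a kinesin of the cilium tip, at -0.53 log2 (SE 0.13). Their adjusted p-values were 0.00836, 0.00986 and 0.0286. Sufu rose in the RAD21 RNA by 0.15 log2 (SE 0.06, adjusted p = 0.0428), the only 1 of 15, and none of 14 passed in PRO-seq. None of the 16 cilium transport genes passed after early WAPL loss. Tulp3 in the RAD21 RNA (0.21 log2, SE 0.06, adjusted p = 0.0023) and Arl13b in PRO-seq (0.37 log2, SE 0.10, adjusted p = 0.0193) were the only 1 of 16 to pass in each.

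**Figure D4:**
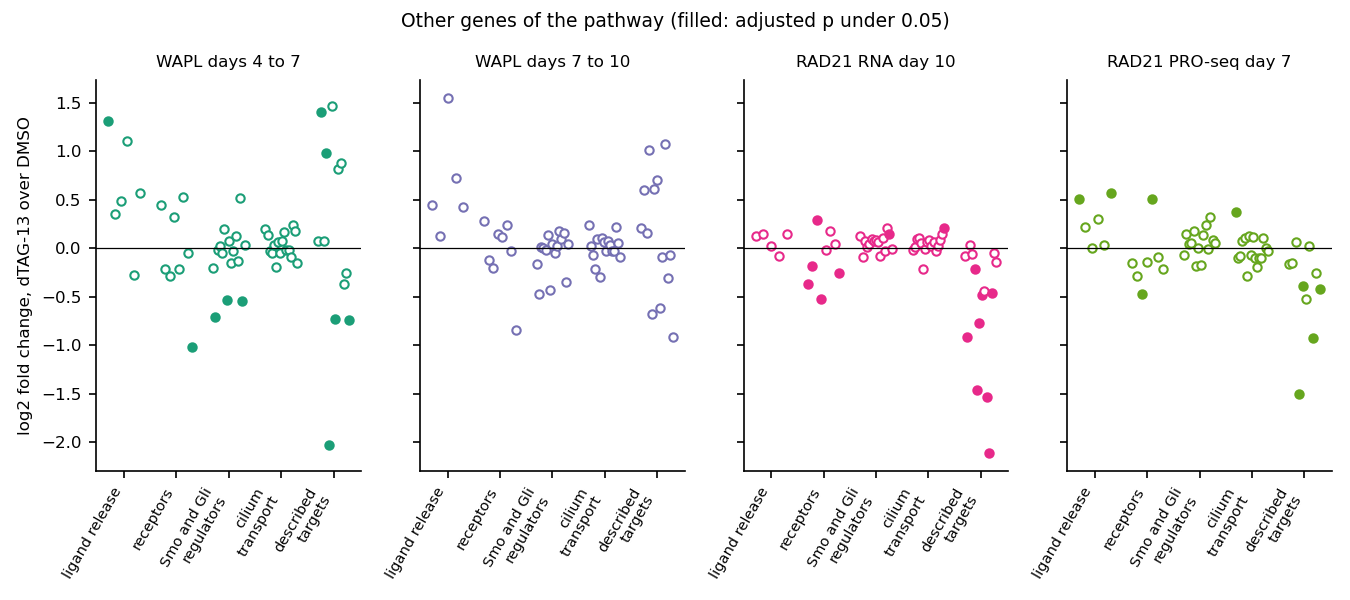
Log2 fold change of dTAG-13 over DMSO (vertical axis) of every tested gene in the 5 pathway lists, with a panel per comparison; each point is 1 gene and filled points passed an adjusted p of 0.05. The described targets were spread on both sides of 0 after early WAPL loss, with medians of 0.07 there and -0.45 in the RAD21 RNA.

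Genes described as Hedgehog targets in some tissues changed in both directions after WAPL loss. After early WAPL loss 2 of 12 tested rose and 3 fell, where 15.2% of all genes passed. The shares of all genes were 18.7% in the RAD21 RNA and 10.6% in PRO-seq. The cyclin Ccnd2 rose by 0.98 log2 (SE 0.10) and the signal Bmp4 by 1.40 log2 (SE 0.14), with adjusted p-values of 0.00194 and 0.00196, while Foxa2 fell by 2.03 log2 (SE 0.23, adjusted p = 0.00248), with overlapping groups of 11.2 ± 12 CPM (SD, n = 3) in DMSO and 2.94 ± 3.33 CPM after dTAG-13. In the RAD21 RNA 8 of 14 fell and none rose, with a list median of -0.45 against 0.01 over all genes. Bmp4 fell there by 0.92 log2 (SE 0.06), Nkx6-1, a ventral neural tube and pancreas factor, by 1.53 log2 (SE 0.19) and Mycn by 0.48 log2 (SE 0.06), with adjusted p-values of 1.06e-44, 2.04e-13 and 1.96e-14. In PRO-seq 4 of 10 fell and none rose, among them Prdm1 by 0.93 log2 (SE 0.13, adjusted p = 8.57e-06), Foxa2 by 1.5 log2 (SE 0.32, adjusted p = 0.00187) and Mycn by 0.39 log2 (SE 0.09, adjusted p = 0.00341). No gene of the 5 lists passed after late WAPL loss, where no gene at all did.

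The nearest 2 protein-coding genes on each side of every member, 36 in all by their order in RefSeq, were read in the same fits. After early WAPL loss 2 of 27 tested passed, where 15.2% of all genes did, Cnpy1 near Shh at 0.73 log2 (SE 0.13, adjusted p = 0.0105) and Mars near Gli1 at -0.46 log2 (SE 0.12, adjusted p = 0.0361). In the RAD21 RNA 4 of 26 passed, where 18.7% of all genes did. Rbm33, next to Shh, rose by 0.19 log2 (SE 0.06, adjusted p = 0.0075) in the libraries in which Shh fell. Lmbr1, whose intron holds the limb enhancer of Shh and which was picked out after its value was seen, had 0.04 log2 with an adjusted p of 0.891. Inhba, an activin subunit gene next to Gli3, fell by 1.51 log2 (SE 0.41, adjusted p = 0.00235), and beside Gli2 Tfcp2l1 fell by 0.33 log2 (SE 0.09, adjusted p = 0.00193) and Ralb rose by 0.25 log2 (SE 0.06, adjusted p = 0.000265). In PRO-seq 2 of 32 passed, where 10.6% of all genes did, 1 higher and 1 lower, among them Inhba at -0.77 log2 (SE 0.24, adjusted p = 0.0346).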

How the data were processed

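The series holds 94 samples, of which 14 poly(A) RNA-seq and 4 PRO-seq libraries entered; the chromatin, CHART and Hi-C samples stay out. Titles gave the groups, clones and replicate numbers. For RNA, the authors deposited raw counts for each gene in 3 tables. For PRO-seq they deposited expected counts, partly fractional, which were rounded before testing. The submitters' processing notes name, with no role for each, the aligners Bowtie2, TopHat2 and Novoalign, the tools HOMER, DESeq2 and DESeq, and genome builds dm6, mm9 and hg19. How reads were assigned to genes, and whether by strand, is not given in the sources used here, so overlapping genes may share reads. RefSeq (GRCm38.p6) gave gene order and promoter sequences only. The late WAPL and RAD21 RNA tables list 14997 and 15363 genes, against 24421 in the early WAPL and 22529 in the PRO-seq data.

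The main test was edgeR 4.0.16 (R 4.3.3): filterByExpr at its minimum count of 10, TMM factors, quasi-likelihood F-tests, and Benjamini-Hochberg adjusted p under 0.05 over every gene tested. Clone entered as a term except in the late WAPL and day fits, which have 1 clone each. This left 3 residual degrees of freedom in the early WAPL fit, 2 in the late WAPL and day fits, 5 in the window difference and 1 in each RAD21 fit. Pair ratios took a prior count of 0.5. Named genes are the 9 members, Rad21, Wapl, up to 3 genes past the threshold by smallest p for each pathway list and comparison, neighbours past the threshold, and the 3 most alike genes of each member (leaving out predicted genes, RIKEN clones and pseudogenes). Members and lists were chosen with earlier results of these data known. Alternatives were RLE scaling, library totals, no filter, a mean count minimum of 50, limma-voom (limma 3.58.1), DESeq2 1.42.0, other clone and pair terms, and omission of single libraries. The scripts were tested on simulated data. Results for some genes that the rule names are not reported here.

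No libraries were near-duplicates: chi-square per gene between replicates was 12.2 to 54.1. In the early WAPL set the deviations of equally numbered libraries had r = 0.51, 0.53 and 0.63, the last for clone H2. The numbers were read as pairs in the pair ratios and the replicate block, but the main WAPL tests did not use these pairs. Deviations were taken from the mean of both clones, so the value for H2 also holds the difference between clones. Plots used matplotlib 3.10.9.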

Additional observations from a re-analysis of the deposited data

Results flagged for a closer look

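Shh was lower after RAD21 loss in both day 10 RNA pairs (log2 ratios of -1.57 and -2.02) and higher in both day 7 PRO-seq pairs (1.19 and 0.52), a difference of 2.65 between the means. The difference was not tested, and assay and day differ together. In 3 further cases among the genes tested every pair of 1 clone moved one way and every pair of the other clone the opposite way, also untested. Ihh had 0.14 in clone C4 and -0.24 in clone G9 in the RAD21 RNA, a difference of -0.38. Hhip had -0.02 in C4 and 0.23 in G9 in the same libraries, a difference of 0.25. After early WAPL loss Gli2 stood at -0.12 and -0.06 in the H7 pairs against 0.18 in the H2 pair, a difference of 0.27. Ihh, too scarce for a test there, stood at -0.2 in both H7 pairs and 0.41 in the H2 pair, from 3 to 33 counts per library.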

How the results depend on the processing

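After early WAPL loss the number of members called stayed at 2 to 4 under all 15 alternatives, with Gli1 and Hhip called in each fit that tested them. After late WAPL loss 0 members passed in the main analysis, 1 with DESeq2, 4 with the replicate block, which called 5141 genes on 1 residual degree of freedom, and 0 to 1 when 1 library was left out. That block rests on replicate numbers alone, with r = 0.77 between same-numbered libraries of only 2 pairs. In the RAD21 RNA 5 members passed, 3 with DESeq2 (not Boc or Gli2), 0 with no replicate block (the clone pairs these libraries) and 0 to 1 when 1 library was left out. In PRO-seq 1 passed, 2 with RLE scaling, a mean count of at least 50 or limma-voom, 3 with no filter, and 0 with DESeq2, with no replicate block and in each fit without 1 library. For day 10 against day 7 it was 1, 0 with a mean count of at least 50, where Shh was not tested, 2 with the replicate block (r = 0.31) and 1 to 3 when 1 library was left out. No member differed between windows under any alternative. Signs were compared after rounding to 2 decimals, so a change that rounds to 0 had none. Unrounded, Gli2 after early WAPL loss, such a case, kept its sign in 6 of 15 alternatives. In rounded values the sign of a member's change differed from the main value in 39 of 567 alternative fits, 37 of them without 1 library and 2 in clone H7 alone. The value was called, before or after the turn, in 3 of them: Gli2 in the RAD21 RNA (-0.11 to 0.52 over the fits without 1 library, lowest without dTAG-13 replicate 1, of clone C4), Hhip in PRO-seq (-0.16 to 1.67, likewise) and Gli3 for day 10 against day 7 (0.37 without DMSO day 10 replicate 1, called only there and, at -0.65, without replicate 2). These fits of the RAD21 sets drop the clone term; the cause was not tested.

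Counts over all genes moved more. Early WAPL loss gave 2209, against 3993 with the replicate block, 994 without the clone term, 360 in clone H7 alone and 341 to 4433 without 1 library. The late window gave 0, against 27 to 143 without 1 library. The RAD21 RNA gave 2708 (1422 higher, 1286 lower), against 472 with DESeq2, 1 without the clone term, 16 to 94 without 1 library, and 710 higher and 1303 lower with library totals. PRO-seq gave 1743, against 514 with DESeq2 and 0 without the clone term or 1 library. The window difference gave 0, against 5 with the replicate block. Day 10 against day 7 gave 197, against 298 with library totals, 641 with DESeq2, 1609 with the replicate block and 248 to 3101 without 1 library. Shh and Ihh had too few counts for a test in the early WAPL set.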
